A study of Homo sapiens with 6 samples.

Results

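The E2F transcription factors E2F1 to E2F8 and the pocket proteins RB1 and RBL1 were taken as 1 family and compared between 2 SEM lines. The members were the 10 rows of the expression table whose gene name was E2F1, E2F2, E2F3, E2F4, E2F5, E2F6, E2F7, E2F8, RB1 or RBL1, out of 35410 gene rows. The rule uses the gene name and no measured value, although the family was picked with earlier results of these data known, and all 10 were among the 15465 genes with enough counts to be tested. SEM is a leukemia line described in the labels as proB cells of a B cell precursor leukemia, and it carries a KMT2A::AFF1 fusion. The control line, SEM::mock, carried an empty vector, and the SEM::EGR3 line carried a vector that expresses the transcription factor EGR3 when doxycycline is given. Both lines received 1 µg/mL doxycycline for 48 h before RNA was taken, so the control shared the drug with the overexpressing line. Each line contributed 3 biological replicates, measured by MACE-seq, which sequences 1 fragment near the 3′ end of each polyadenylated transcript and counts it for its gene. Each group was 1 cell line, so that EGR3 expression and any other difference between the 2 lines cannot be told apart.

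E2F proteins bind promoters of genes needed for DNA replication and cell division, mostly as dimers with a DP protein. E2F1, E2F2 and E2F3 act mainly as activators, E2F4, E2F5 and E2F6 mainly as repressors, and the atypical members E2F7 and E2F8 repress without a DP partner. RB1 and its relatives RBL1 (p107) and RBL2 (p130) bind E2F proteins through a pocket domain and hold their target genes silent until cyclin-dependent kinases phosphorylate them at the passage from G1 into S phase. Loss of this brake, through RB1 itself or through the inhibitors of these kinases, occurs in many cancers.

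Several genes of the family are themselves E2F targets, and the start regions of 4 members are printed because they hold the bases that E2F proteins recognise. RefSeq promoter windows on GRCh38.p14, which run from 250 bases before an annotated start to 50 bases after it, were at hand for 8 of the 10 members, in 9 windows. E2F5 and E2F8 had none. The E2F motif was searched in 4 forms, TTTGGCGC, TTTCCCGC, TTTCGCGC and TTTGCCGC, on both strands, and 3.31% of all 35116 windows held at least 1 of them. The windows of E2F1, E2F2, E2F3 and RBL1 held them, and they are given 5′ to 3′ on the strand of the gene with the matching bases in capitals. E2F1 lies on the minus strand with its window at chr20:33686336-33686635, E2F2 on the minus strand at chr1:23531184-23531483, E2F3 on the plus strand at chr6:20401629-20401928 and RBL1 on the minus strand at chr20:37095948-37096247.
E2F1: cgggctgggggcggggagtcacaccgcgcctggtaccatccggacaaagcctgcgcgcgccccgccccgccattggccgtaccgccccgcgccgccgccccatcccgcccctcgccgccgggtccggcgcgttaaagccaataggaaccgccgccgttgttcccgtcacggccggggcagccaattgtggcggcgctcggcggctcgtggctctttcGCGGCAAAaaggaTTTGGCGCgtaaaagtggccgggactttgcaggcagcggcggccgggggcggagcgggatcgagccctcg
E2F2: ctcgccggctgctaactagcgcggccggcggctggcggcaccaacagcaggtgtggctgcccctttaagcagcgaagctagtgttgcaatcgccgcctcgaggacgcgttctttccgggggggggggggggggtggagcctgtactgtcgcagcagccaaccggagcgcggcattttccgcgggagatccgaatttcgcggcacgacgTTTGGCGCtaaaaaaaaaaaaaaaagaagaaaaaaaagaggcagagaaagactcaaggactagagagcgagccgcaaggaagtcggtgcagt
E2F3: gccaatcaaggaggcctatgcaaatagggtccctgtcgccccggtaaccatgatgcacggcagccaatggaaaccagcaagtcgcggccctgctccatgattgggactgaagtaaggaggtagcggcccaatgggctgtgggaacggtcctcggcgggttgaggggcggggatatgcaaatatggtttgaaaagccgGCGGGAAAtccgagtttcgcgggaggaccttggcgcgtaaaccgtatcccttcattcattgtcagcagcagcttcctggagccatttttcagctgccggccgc
RBL1: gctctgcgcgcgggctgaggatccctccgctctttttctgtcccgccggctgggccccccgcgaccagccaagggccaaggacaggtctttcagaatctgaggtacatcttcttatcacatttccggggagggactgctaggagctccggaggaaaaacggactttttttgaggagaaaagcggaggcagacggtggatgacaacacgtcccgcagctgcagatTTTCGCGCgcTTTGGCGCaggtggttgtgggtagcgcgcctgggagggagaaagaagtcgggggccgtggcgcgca
In E2F1 the matches began 33 and 20 bases before the start, the first of them on the opposite strand, and in RBL1 they began 26 and 16 bases before it. The single matches of E2F2 and E2F3 began 42 and 53 bases before the start, that of E2F3 on the opposite strand. None of the forms was found in the second window of E2F3 or in the windows of E2F4, E2F6, E2F7 and RB1, and that of RB1 lay 172724 bases inside the gene rather than at its annotated start. The letters GCGTGGGCG and GCGGGGGCG, forms of the motif bound by EGR proteins, were in 5.77% of all windows and in 0 of the 9 windows of the members. A match is a run of letters and was not tested for binding, and the absence of one says only that these letters are not in the window.

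The libraries held 5286115 to 6181388 counts in listed genes in SEM::mock and 7293092 to 15106018 in SEM::EGR3, so the SEM::EGR3 values rest on more reads. EGR3 itself was counted 8, 10 and 6 times in the SEM::mock libraries and 9768, 4952 and 5557 times in the SEM::EGR3 libraries (log2 fold change 8.78, SE 0.11, adjusted p = 1.28e-26, edgeR). The labelled cell type was checked against its markers. PAX5, EBF1 and the other 7 genes of a B lineage list summed to between 2.29 and 4.10 CPM, which are counts scaled to a library total of 1000000, in SEM::mock and between 453.2 and 479.5 CPM in SEM::EGR3. EBF1 was at 0 in all 3 SEM::mock libraries, while DNTT had at most 2 counts in any library of either line and VPREB1 at most 8. Erythroid and megakaryocyte markers, HBA1 and GATA1 among them, summed to 960 to 1029 CPM in SEM::mock and 1794 to 1853 CPM in SEM::EGR3, while myeloid markers summed to 273 to 283 against 91.3 to 93.0 CPM. T cell markers summed to 59.5 to 64.8 CPM in SEM::mock against 8.42 to 10.5 CPM in SEM::EGR3, a sum that is mostly CD3D, while CD2 was higher (1, 0 and 0 against 31, 21 and 18 counts). Epithelial and fibroblast markers summed to 427 to 467 against 365 to 378 CPM, where the epithelial KRT8 and EPCAM were lower and the collagens COL1A1 (3.61 against 43.0 CPM) and COL1A2 (2.91 against 22.6 CPM) were higher. The defining B lineage markers of the labelled cell type were thus at or near 0 in the SEM::mock libraries. Whether both groups are the SEM line, and the same line, is therefore in doubt, and SEM::mock and SEM::EGR3 are used here as the labels' names for the libraries. These differences run with every comparison between the 2 lines, and their part in the results on the family was not tested.

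Of the 10 family members, 6 were higher in SEM::EGR3, 1 was lower and 3 did not pass the threshold of an adjusted p of 0.05 in edgeR's quasi-likelihood test over all genes. E2F1, E2F3, E2F7, E2F8, RB1 and RBL1 were the higher genes, and E2F2, a close relative of E2F1 and E2F3, was the lower one. The changes were modest, from 16.2% above SEM::mock for RBL1 to 79.2% for E2F7, and none reached a log2 fold change of 1 in either direction. Over all tested genes 68.5% passed the same threshold, 36.5% of them higher and 32% of them lower as shares of the tested genes, so that 7 called of 10 members is close to the background. A log2 fold change of at least 1 with a passing p was found for 25.2% of all tested genes and for 0 of the members. The median log2 fold change of the members was 0.30 beside 0.03 over all tested genes. The level of the 10 members together was 371 to 375 CPM in SEM::mock and 420 to 442 CPM in SEM::EGR3. In bulk RNA, a change in the share of cells in one phase of the cell cycle and a change in RNA per cell cannot be told apart.

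**Figure D1:**
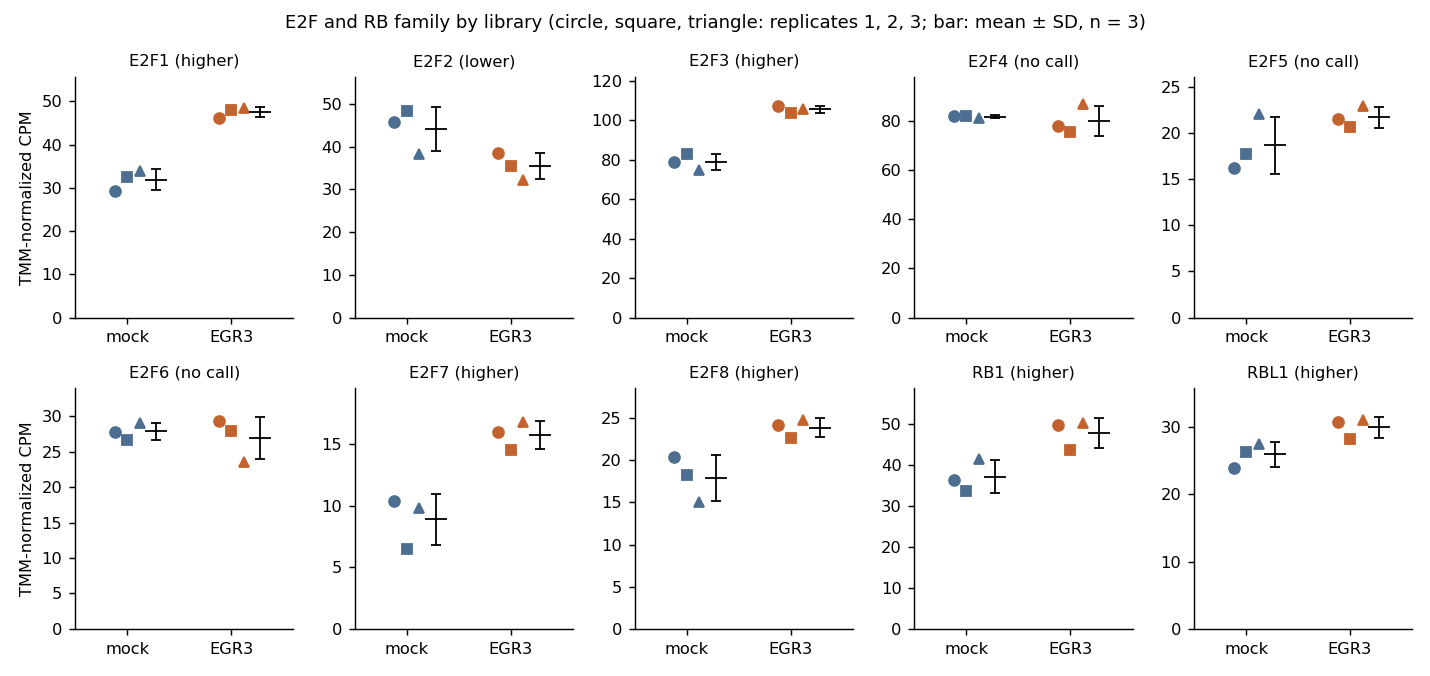
Each panel plots 1 member, with the normalized level in CPM on the vertical axis from 0 and the 2 lines on the horizontal axis, blue for SEM::mock and orange for SEM::EGR3. Points are single libraries and bars the mean ± SD of 3. The 3 libraries of each line are separate for E2F1, E2F3, E2F7, E2F8, RB1 and RBL1 and overlap for E2F2, E2F4, E2F5 and E2F6.

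Among the activators, E2F1 and E2F3 rose and E2F2 fell. E2F1, which drives S phase entry and at high levels apoptosis, stands on the minus strand of chromosome 20 (GRCh38, 33675683 to 33686404). It measured 29.2, 32.5 and 34.0 CPM in the SEM::mock libraries and 46.3, 47.9 and 48.4 CPM in the SEM::EGR3 libraries. The lowest SEM::EGR3 library was above the highest SEM::mock library by more than the range of either line. This is a 1.49-fold difference with a 95% interval of 1.33 to 1.67 (adjusted p = 8.83e-07, edgeR). A log2 fold change of that size or larger, in either direction, was found for 42.7% of tested genes.

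E2F3 lies on the plus strand of chromosome 6 (20401906 to 20493715) and encodes an activator with 2 promoters and isoforms that 3′ end counts do not separate. Its levels were 79.0, 82.7 and 74.6 CPM in SEM::mock and 107, 104 and 106 CPM in SEM::EGR3. The 3 SEM::EGR3 values lay close together and well above all SEM::mock values. The log2 fold change was 0.42 (SE 0.06, adjusted p = 1.56e-06, edgeR). The processed pseudogenes E2F3P1 and E2F3P2 had together 1 count in the 6 libraries, and E2F3-IT1, within an intron, had 4 counts over all libraries.

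E2F2, on the minus strand of chromosome 1 (23506430 to 23531220), moved the other way. It measured 45.8, 48.4 and 38.3 CPM in SEM::mock and 38.5, 35.6 and 32.3 CPM in SEM::EGR3. The lines overlapped by a narrow margin, since SEM::mock replicate 3 was just below SEM::EGR3 replicate 1. The mean went from 44.1 ± 5.24 to 35.4 ± 3.12 CPM (SD, n = 3), a log2 fold change of -0.31 (SE 0.09, adjusted p = 0.00386, edgeR). It passed the threshold under all 14 alternative settings, with adjusted p between 0.0005 and 0.0348.

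The shift between the activators was also read as a ratio of counts within each library, which does not depend on library scaling. The ratio rests on the same counts as the fold changes, and it does not show which of its genes moved. For 1 count of E2F2 there were 0.639, 0.672 and 0.888 counts of E2F1 in SEM::mock and 1.20, 1.35 and 1.502 in SEM::EGR3. Every SEM::EGR3 library had more E2F1 than E2F2 counts and every SEM::mock library fewer, and the mean log2 ratio differed by 0.89. The ratio of E2F2 to E2F3 was 0.579, 0.585 and 0.513 in SEM::mock and 0.359, 0.342 and 0.305 in SEM::EGR3, without overlap (difference in log2 ratio -0.74). By the exact two-sided permutation test both differences had p = 0.1, which is the smallest p that 3 against 3 libraries can give, and adjusted over the 6 pairs tested p = 0.2. The ratio of E2F1 to E2F3 overlapped between the lines (difference in log2 ratio 0.15, exact permutation p = 0.2), with differences of 0.09 without SEM::mock replicate 1 and 0.24 without SEM::mock replicate 3.

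**Figure D2:**
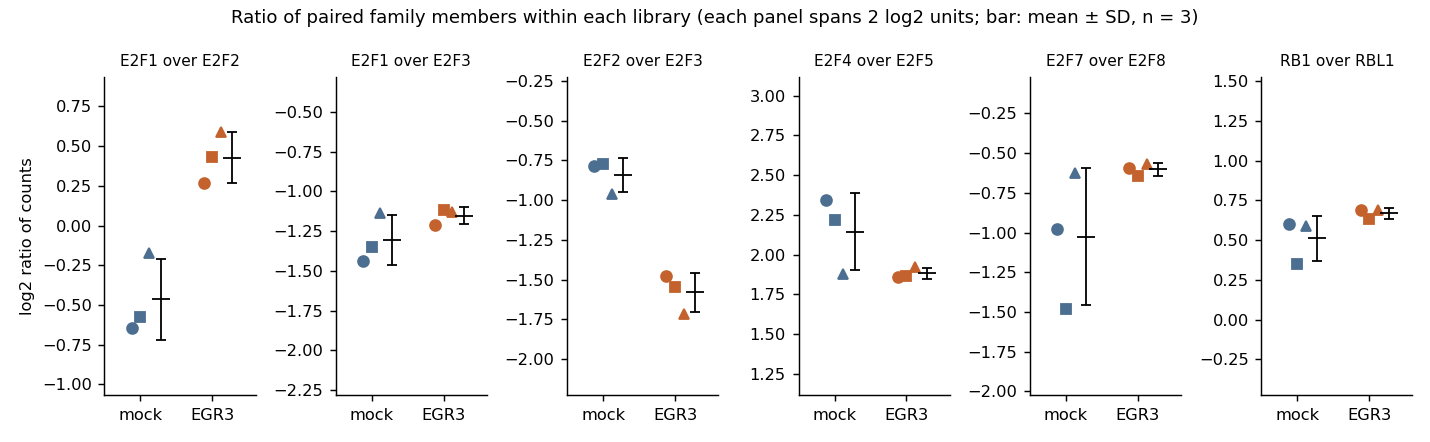
The vertical axis is the log2 ratio of the counts of 2 members within a library, over the same span of 2 units in every panel, and points are single libraries of SEM::mock (blue) and SEM::EGR3 (orange) with bars for the mean ± SD of 3. The lines are apart for E2F1 over E2F2, E2F2 over E2F3 and, narrowly, RB1 over RBL1, and overlap for the other 3 pairs.

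None of the repressors E2F4, E2F5 and E2F6 passed the threshold. E2F4, the main partner of RBL1 and RBL2 in resting cells, lies on chromosome 16 (67192169 to 67198918, plus strand). Its levels were 82.2, 82.1 and 81.1 CPM in SEM::mock and 78.0, 75.4 and 86.7 CPM in SEM::EGR3. The SEM::EGR3 libraries spread to both sides of the SEM::mock ones, and the log2 fold change was -0.03 with a 95% interval of -0.17 to 0.10 (adjusted p = 0.688, edgeR).

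E2F6, a repressor that does not bind pocket proteins and works with Polycomb proteins, lies on chromosome 2 (11444375 to 11466177, minus strand). It measured 27.8, 26.7 and 29.1 CPM in SEM::mock and 29.4, 27.9 and 23.6 CPM in SEM::EGR3, with overlap. The log2 fold change was -0.03 and its 95% interval ran from -0.24 to 0.17 (adjusted p = 0.774, edgeR). For E2F4 and E2F6 the sign of this small difference changed between settings, and neither passed the threshold under any of them.

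E2F5, the other partner of RBL1 and RBL2 among the repressors, lies on chromosome 8 (85177225 to 85217158, plus strand). It had 16.2, 17.7 and 22.1 CPM in SEM::mock and 21.5, 20.7 and 22.9 CPM in SEM::EGR3. SEM::mock replicate 3 stood within the range of SEM::EGR3, and the other 2 SEM::mock libraries were below it. The log2 fold change was 0.23 with a 95% interval of -0.01 to 0.46 (adjusted p = 0.0780, edgeR), and without SEM::mock replicate 3 it was 0.34 with an adjusted p of 0.0183. Without SEM::mock replicate 1 it was 0.12 (adjusted p = 0.408, edgeR) and without SEM::mock replicate 2 it was 0.18 (adjusted p = 0.237, edgeR). Exons of E2F5 overlap those of RBIS on the opposite strand, and the strand setting of the counting is not given in the sources used here, so reads there are uncertain. RBIS was lower in SEM::EGR3 (log2 fold change -0.22, adjusted p = 0.000936, edgeR). The ratio of E2F4 to E2F5 counts overlapped between the lines (difference in log2 ratio -0.26, exact permutation p = 0.2), with differences of -0.16 without SEM::mock replicate 1 and -0.40 without SEM::mock replicate 3.

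Both atypical repressors were higher in SEM::EGR3. E2F7, which is induced by E2F1 in S phase and represses E2F1 in turn, lies on chromosome 12 (77021247 to 77065580, minus strand) and had the largest fold of the 10 members. Its raw counts were 59, 39 and 50 in SEM::mock and 249, 108 and 152 in SEM::EGR3, the fewest of the family on average, which corresponds to 10.4, 6.51 and 9.77 CPM against 16.0, 14.5 and 16.7 CPM. All SEM::EGR3 libraries were above all SEM::mock libraries. The difference was 1.79-fold with a 95% interval of 1.45 to 2.22 (adjusted p = 2.25e-05, edgeR). Of all tested genes, 30.4% had a log2 fold change at least as large in either direction.

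E2F8, which dimerises with E2F7, lies on chromosome 11 (19224063 to 19241620, minus strand). It measured 20.4, 18.2 and 15.04 CPM in SEM::mock and 24.2, 22.7 and 24.8 CPM in SEM::EGR3. The lines did not overlap, and the log2 fold change was 0.41 (SE 0.11, adjusted p = 0.00181, edgeR). The antisense gene CSRP3-AS1, whose exons overlap those of E2F8, had 1 count in the 6 libraries. The ratio of E2F7 to E2F8 counts was 0.509, 0.358 and 0.649 in SEM::mock and 0.662, 0.639 and 0.676 in SEM::EGR3, which overlapped (difference in log2 ratio 0.42, exact permutation p = 0.2). The difference was 0.20 without SEM::mock replicate 2 and 0.63 without SEM::mock replicate 3.

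The pocket proteins RB1 and RBL1 were higher in SEM::EGR3, RBL1 by a margin that most settings did not keep. RB1, the retinoblastoma tumor suppressor on chromosome 13 (48303726 to 48599436, plus strand), had 36.3, 33.5 and 41.4 CPM in SEM::mock and 49.6, 43.6 and 50.1 CPM in SEM::EGR3. The lowest SEM::EGR3 library was close to the highest SEM::mock library without reaching it. The mean rose from 37.1 ± 3.999 to 47.8 ± 3.61 CPM (SD, n = 3), a log2 fold change of 0.38 (SE 0.09, adjusted p = 0.000376, edgeR). Introns of RB1 hold other genes on the opposite strand whose exons do not overlap its own. One of them, the lysophosphatidic acid receptor LPAR6, was at 0 in all 3 SEM::mock libraries and at 426, 171 and 216 counts in SEM::EGR3, at least 45.9-fold higher by a limit of 3 counts per library. For RCBTB2, another of them, 40, 45 and 26 counts in SEM::mock compared with 245, 107 and 152 in SEM::EGR3 (log2 fold change 1.25, adjusted p = 9.38e-08, edgeR). LPAR6 and RCBTB2 are the protein-coding genes within RB1, and the values of the noncoding genes and pseudogenes there are not given.

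RBL1, which pairs with E2F4 and E2F5 in cycling cells, lies on chromosome 20 (36996349 to 37095995, minus strand). Its levels were 23.9, 26.4 and 27.5 CPM in SEM::mock and 30.7, 28.2 and 31.0 CPM in SEM::EGR3. The lines were apart by less than the spread within either. The log2 fold change was 0.22 with a 95% interval of 0.03 to 0.41 (adjusted p = 0.0401, edgeR), and the call was lost in 8 of 14 alternative settings, 4 of which left out 1 library, with adjusted p of 0.224 without SEM::mock replicate 1, 0.0797 without SEM::mock replicate 2, 0.104 without SEM::EGR3 replicate 1 and 0.101 without SEM::EGR3 replicate 3. AL136172.1, an antisense gene over an exon of RBL1, had between 2 and 10 counts in a library. The ratio of RB1 to RBL1 was 1.52, 1.27 and 1.504 in SEM::mock and 1.62, 1.55 and 1.61 in SEM::EGR3 (difference in log2 ratio 0.16, exact permutation p = 0.1), and without SEM::mock replicate 2 the difference was 0.08.

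**Figure D3:**
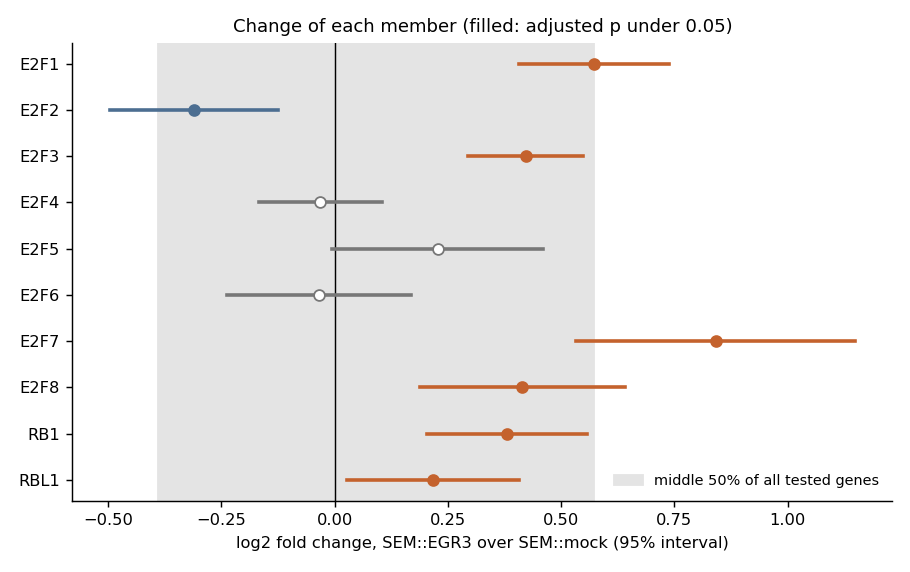
The log2 fold change of each member, SEM::EGR3 over SEM::mock, is on the horizontal axis with its 95% interval, filled where the adjusted p was under 0.05, and the grey band spans the middle 50% of all tested genes, from -0.39 to 0.57. E2F7 is the member farthest to the right at 0.84 and lies outside the band, E2F1 is at its edge, and E2F2 is the called member to the left of 0.

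The groups of 3 libraries did not overlap for 6 of the 10 members, all of them higher in SEM::EGR3. Over all tested genes the groups did not overlap for 70.1%, with 37.5% higher and 32.6% lower in SEM::EGR3. The 6 calls other than RBL1, those of E2F1, E2F2, E2F3, E2F7, E2F8 and RB1, passed the threshold in all 14 alternative settings. Over those settings the log2 fold change ran from 0.49 to 0.65 for E2F1, from 0.37 to 0.50 for E2F3, from 0.64 to 0.96 for E2F7, from 0.30 to 0.50 for E2F8 and from 0.30 to 0.46 for RB1. E2F2 stayed between -0.41 and -0.23.

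**Figure D4:**
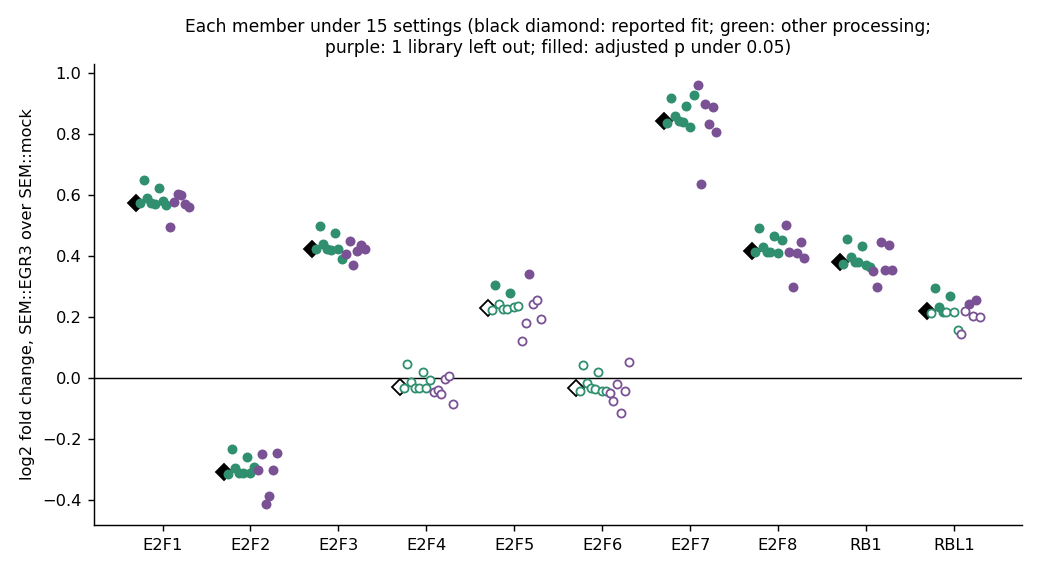
The vertical axis is the log2 fold change of each member under 15 settings, with a black diamond for the value reported, green for another test, normalization, filter, block or depth, purple for a fit without 1 library, and filled marks where the adjusted p was under 0.05. E2F1, E2F2, E2F3, E2F7, E2F8 and RB1 keep filled marks throughout, RBL1 keeps them in 6 of 14 alternatives and E2F5 gains them in 3.

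The genes that act with the family were read from 10 lists holding 109 genes, of which 106 were tested. In the SEM::EGR3 line 43 of them stood higher and 32 lower, or 70.8% called beside 68.5% of all tested genes, with a median log2 fold change of 0.06. Every list held called genes of both directions. The counts of each list below stand beside 36.5% higher and 32% lower over all tested genes.

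Of the DP dimer partners, TFDP1 was higher and TFDP2 lower. TFDP1, the common partner of E2F1 to E2F6, measured 132, 114 and 121 CPM in SEM::mock and 149, 147 and 149 CPM in SEM::EGR3 (log2 fold change 0.28, adjusted p = 0.000201, edgeR). TFDP2 measured 62.8, 59.1 and 56.4 CPM against 50.9, 49.6 and 48.8 CPM (log2 fold change -0.25, adjusted p = 0.00244, edgeR). The libraries of the 2 lines did not overlap for either gene. TFDP3 was too low to be tested.

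The third pocket protein, RBL2, was read with the MuvB and DREAM subunits, which join it and E2F4 to silence cell cycle genes in resting cells. RBL2 had 28.2, 24.5 and 23.2 CPM in SEM::mock and 43.6, 44.5 and 40.8 CPM in SEM::EGR3, far apart (log2 fold change 0.76, SE 0.09, adjusted p = 4.30e-08, edgeR). The list had 7 tested genes, with 3 higher, 1 lower and 3 not called (median log2 fold change -0.01). LIN52, a MuvB subunit, was higher by 0.57 and LIN9, another, lower with -0.41 on the log2 scale. MYBL1 was the remaining higher gene, at an average of 24.3 counts. MYBL2, which binds MuvB in proliferating cells, was 173 ± 9.20 CPM in SEM::mock and 170 ± 4.81 CPM in SEM::EGR3 (SD, n = 3, adjusted p = 0.718, edgeR). MYBL1 and MYBL2 were added after their values were seen.

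The cyclins and kinases that phosphorylate pocket proteins were listed together with CDC25A, a phosphatase. Of these 10 genes, 6 were lower, 2 were higher and the median log2 fold change was -0.23. CCND1, cyclin D1, measured 121, 130 and 128 CPM in SEM::mock and 30.7, 31.8 and 30.4 CPM in SEM::EGR3, a log2 fold change of -2.03 (adjusted p = 1.08e-18, edgeR). Its kinases differed in direction, with CDK6 at 140 ± 9.56 against 319 ± 24.5 CPM (SD, n = 3, log2 fold change 1.18, adjusted p = 2.44e-14, edgeR) and CDK4 lower by a log2 fold change of -0.27. The 2 E cyclins, partners of CDK2, parted in the same way. CCNE1 measured 55.1, 57.9 and 56.8 CPM in SEM::mock and 30.7, 24.3 and 28.9 CPM in SEM::EGR3 (log2 fold change -0.99, adjusted p = 1.45e-10, edgeR). CCNE2 measured 16.2, 13.8 and 16.2 CPM against 28.8, 21.5 and 30.7 CPM (log2 fold change 0.83, adjusted p = 2.74e-06, edgeR). The other lower genes were CCND2, CCND3 and CDK2, while CCNA2 (log2 fold change -0.10) and CDC25A (-0.02) did not pass. Among these, CDK4, CCND2, CCND3, CDK2, CCNA2 and CDC25A were named to complete the list, after their values were seen.

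Of 6 tested CDK inhibitors, which keep pocket proteins unphosphorylated, 4 were higher and 1 lower, with a median log2 fold change of 0.57. CDKN2A encodes the CDK inhibitor p16 and also ARF, which is not one, and 3′ end counts do not separate them. CDKN2A was at 0 in all 3 SEM::mock libraries and at 2356, 1127 and 1357 counts in SEM::EGR3. This is at least 280-fold higher by a limit of 3 counts per library. CDKN2B, its neighbour on the chromosome, was also at 0 in SEM::mock and had 9, 4 and 5 counts in SEM::EGR3, too few to be tested. CDKN2C, p18, rose from 39.9 ± 8.51 to 148 ± 11.1 CPM (SD, n = 3, log2 fold change 1.89, adjusted p = 4.38e-15, edgeR). CDKN1C, p57, measured 98.6, 105 and 116 CPM in SEM::mock and 42.7, 51.1 and 51.0 CPM in SEM::EGR3 and was the lower one (log2 fold change -1.16, adjusted p = 1.48e-12, edgeR). CDKN1A (p21) and CDKN1B (p27), added after their values were seen, had log2 fold changes of 0.56 and 0.58. A count of 0 in each library of a line, as for CDKN2A, EBF1 and LPAR6, is a difference between the 2 lines outside the family, and its part in the results on the family was not tested.

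**Figure D5:**
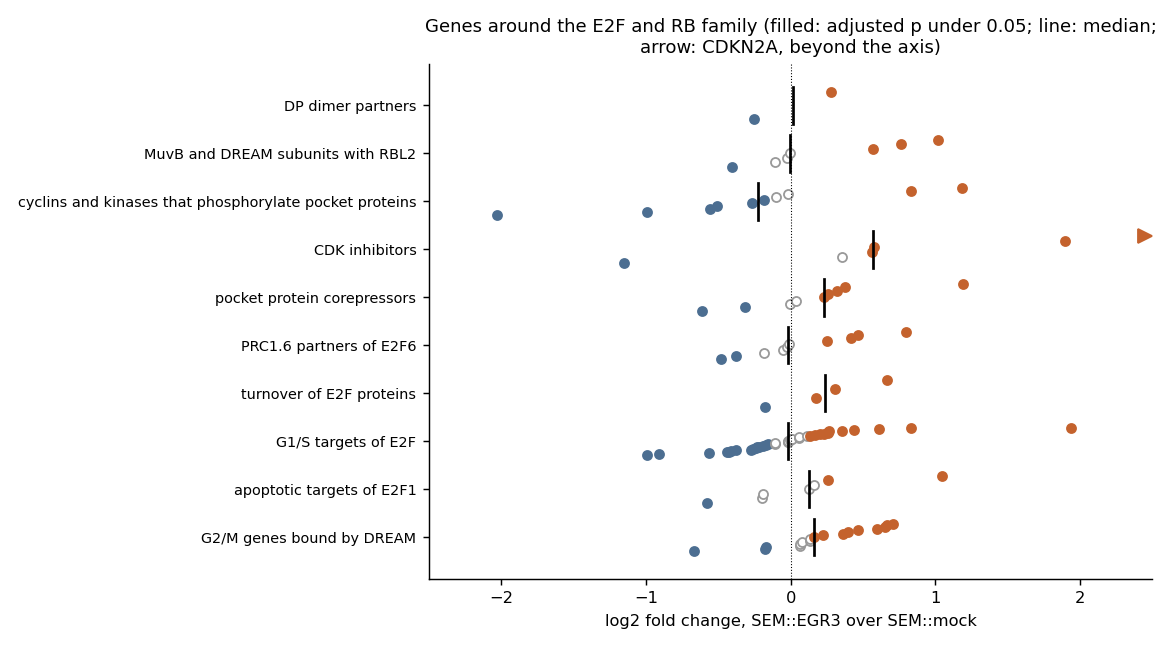
Each point is a tested gene of 1 of the 10 lists, placed by its log2 fold change on the horizontal axis, orange if higher, blue if lower and open if not called, with a black line at the median of the list. CDKN2A lies beyond the axis and is drawn as an arrow. The medians run from -0.23 for the cyclins and kinases to 0.57 for the CDK inhibitors, and every list has called genes on both sides of 0.

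The corepressors that pocket proteins recruit gave 5 higher and 2 lower genes of 9. SMARCA2, the BRM ATPase of chromatin remodelling complexes, rose from 15.8 ± 4.22 to 36.1 ± 1.83 CPM (SD, n = 3, log2 fold change 1.19, adjusted p = 4.75e-09, edgeR), and ARID4A, an RB1-binding protein, had a log2 fold change of 0.37. HDAC1, a histone deacetylase, fell from 203 ± 15.4 to 133 ± 3.98 CPM (log2 fold change -0.61, adjusted p = 2.12e-09, edgeR) and the scaffold SIN3B had -0.32. Of 10 partners of E2F6 in the Polycomb complex PRC1.6, 4 were higher and 2 lower. RYBP was at 33.1 ± 1.57 against 56.9 ± 4.98 CPM (log2 fold change 0.80) and its relative YAF2 had 0.46, while the ubiquitin ligase RNF2 had -0.48 and the heterochromatin protein CBX3 had -0.38.

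The 4 genes whose products mark E2F proteins for degradation or act in the same ligases were all called, beside 68.5% of all tested genes. CDC20 (log2 fold change 0.67) and FZR1 (0.30), activators of the anaphase-promoting complex, and CCNF (0.17), cyclin F, were higher. The number of higher genes was 2 in the fits without SEM::mock replicate 2, SEM::mock replicate 3 or SEM::EGR3 replicate 3. SKP2, the F-box protein that targets E2F1 and p27, had a log2 fold change of -0.18, and the number of lower genes in this list was 0 in 8 of 14 alternative fits, among them those without SEM::mock replicate 1, SEM::EGR3 replicate 1 or SEM::EGR3 replicate 3.

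The G1/S targets of E2F moved in both directions. Of 38 genes, 12 were higher, 15 were lower and 11 did not pass, a called share of 71.1% beside 68.5% of all tested genes, and the median log2 fold change was -0.02. The level of the list as a sum was 5536 to 5681 CPM in SEM::mock and 5423 to 5477 CPM in SEM::EGR3. UHRF1, which maintains DNA methylation at replication, measured 12.1, 15.2 and 12.3 CPM in SEM::mock and 53.3, 42.3 and 55.8 CPM in SEM::EGR3 (log2 fold change 1.94, adjusted p = 2.36e-13, edgeR). CDC45, part of the replicative helicase, measured 306, 291 and 296 CPM against 159, 155 and 160 CPM (log2 fold change -0.91, adjusted p = 8.69e-14, edgeR). CCNE2 and CCNE1, given with the cyclins, were the other genes at either end of this list.

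Of 7 apoptotic targets of E2F1, 2 were higher, 1 lower and 4 not called. BBC3, which encodes the BH3-only protein PUMA, rose from 33.7 ± 3.69 to 70.0 ± 5.41 CPM (SD, n = 3, log2 fold change 1.05, adjusted p = 5.14e-11, edgeR). BCL2L11, BIM, had a log2 fold change of 0.26, and without SEM::mock replicate 1 the number of higher genes was 1. PMAIP1, NOXA, had a log2 fold change of -0.58, and without SEM::mock replicate 3 or SEM::EGR3 replicate 3 the number of lower genes was 2.

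The G2/M genes bound by DREAM gave 9 higher and 3 lower of 17, with a median log2 fold change of 0.16. The mitotic kinase AURKB was at 52.6, 49.4 and 48.6 CPM in SEM::mock and 82.0, 83.3 and 80.5 CPM in SEM::EGR3 (log2 fold change 0.71, adjusted p = 1.15e-09, edgeR), and CDC20 was the other gene with the largest rise. BUB1, a kinase of the spindle checkpoint, was at 135, 140 and 142 CPM against 90.5, 83.0 and 88.4 CPM (log2 fold change -0.67, adjusted p = 3.27e-10, edgeR), and TPX2, which activates Aurora A, had -0.18. With no normalization, or with at least 10 counts asked of every library, the number of lower genes was 1.

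The E2F motif of the printed windows was also set against the response of all genes. Of the genes with the motif in a RefSeq window, 697 were tested and matched by symbol, with 36.2% of them higher and 32.4% lower, and their median log2 fold change was 0.03. Of 9643 tested genes without it, 38.7% were higher and 33.4% lower, with a median of 0.04. Among the 4 members that held the motif, E2F1, E2F3 and RBL1 were higher and E2F2 was lower.

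The genes whose levels over the 6 libraries were most like those of E2F1 were SNHG10, ATG4B and TMEM143, among 11502 tested genes with at least 50 counts on average. Likeness was the root mean square difference of centred log2 CPM, which was 0.03, 0.04 and 0.04 on the log2 scale. For E2F7, the member with the largest fold, they were CHROMR, GOLIM4 and PPP2R3B, with differences of 0.07, 0.09 and 0.09. The 6 libraries fall into 2 lines, so these are descriptions with no test.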

How the data were processed

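MACE-seq of polyadenylated RNA was compared between 3 SEM::mock and 3 SEM::EGR3 libraries. The authors aligned reads to GRCh38 with Bowtie2 and counted them per gene with HTSeq, as the submitters' processing notes name these tools (versions, annotation and strand setting are not given in the sources used here). The deposited table holds raw counts, which were used for every test, beside CPM (under the heading TPM) and a signal column of counts scaled by size factors, neither of which was tested. The deposited CPM rest on library totals larger than the listed genes, which hold 73.6% to 75.8% of them. The authors' columns of DESeq2 fold changes and p-values were not used. The column headings spell the EGR3 line ERG3.

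Genes were filtered with filterByExpr, scaled by TMM and tested with edgeR 4.0.16 (R 4.3.3, quasi-likelihood test, Benjamini-Hochberg adjustment over 15465 genes, threshold 0.05), without covariates. CPM given here use counts of listed genes after TMM, and intervals are 95%. Ratios within libraries were compared with an exact permutation test. P-values measure the spread between the biological replicates of each line, and replicates differed by more than counting noise. Alternatives were DESeq2 1.42.0, other normalizations, filters, thresholds and depth, a replicate block and the omission of each library. All members were named, and from each list up to 2 higher and 2 lower genes of the largest change with at least 50 mean counts, all tested genes of lists of 4 or fewer, and RBL2. The members and lists were chosen with earlier results of these data known. Positions came from GENCODE 29, which held 97% of the gene rows. One gene of the B lineage marker list is not reported here.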

Additional observations from a re-analysis of the deposited data

How the results depend on the processing

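The calls of E2F1, E2F2, E2F3, E2F7, E2F8 and RB1 kept direction and threshold in the 14 alternatives run for each. RBL1 lost its call with DESeq2 (log2 fold change 0.21), with no filter (0.21) and with counts thinned to the smallest library (0.16, adjusted p = 0.185), and over the fits without 1 library it ran from 0.14 to 0.25. E2F5 passed with no normalization (0.30) and with at least 10 counts in every library (0.28), and ran from 0.12 to 0.34 without 1 library. The sign of E2F4 turned with no normalization (0.044), with at least 10 counts in every library (0.019) and without SEM::EGR3 replicate 2 (0.0056; range without 1 library -0.088 to 0.0056), and that of E2F6 under the same 2 settings (0.042 and 0.017) and without SEM::EGR3 replicate 3 (0.051; range -0.12 to 0.051), with no call in any of these fits. With no normalization the median log2 fold change of all tested genes was also higher, at 0.106 beside 0.0304 in the reported fit. The cause of these changes was not tested. When a log2 fold change of 1 or more in either direction was also required, 0 members were higher and 0 lower, 7 genes of the lists were higher and 2 lower, and 2581 of all tested genes were higher and 1315 lower.

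Same-numbered replicates did not deviate together (correlations of their deviations -0.20, -0.14 and -0.07 over 11503 genes). These values show no pairing by number, and the labels do not say whether replicates were prepared in matched pairs. With the replicate number as a block, RBL1 had a log2 fold change of 0.21 (adjusted p = 0.0668, edgeR), and the other members kept their side of the threshold.

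Without 1 library, 5 to 7 members were higher and 1 lower. E2F7 rests on 39 to 249 counts a library, the fewest of the family.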
